A study of Homo sapiens with 6 samples.

Results

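MAT2B and the genes of the methionine cycle were examined in HGC-27 cells, an established line from a human gastric cancer, after knockdown of GXYLT2, a xylosyltransferase that extends O-glucose on Notch-type EGF repeats. The cells carried either an shRNA against GXYLT2 (shGXYLT2, 3 libraries) or a control shRNA (shControl, 3 libraries), and messenger RNA was sequenced; the shGXYLT2 line was a stable transfectant, and all cells grew in RPMI medium with 10% fetal bovine serum. The labels give the genotypes as GXYLT2 knockdown and WT. Nothing in them tells a clone from a pool, or a separate culture from a repeat library, so each p-value reflects the spread among these libraries, which may be technical. Sample names carry a single shRNA prefix, so effects of that shRNA on other transcripts and effects of a lower GXYLT2 level cannot be told apart. The 9 genes, MAT2A, MAT2B, AHCY, AHCYL1, AHCYL2, MTR, MTRR, MTAP and AMD1, were taken by symbol from a table of 62703 genes, and each symbol matched 1 row. The set was chosen by the CPM (count scaled to the total of its library) of MAT2B in these 6 libraries, which was already known to be much lower in shGXYLT2, so the MAT2B difference is given as a description, without a test.

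The methionine cycle makes S-adenosylmethionine (SAM), the methyl donor for DNA, RNA, proteins and small molecules. Methionine adenosyltransferase II joins methionine and ATP to form SAM: MAT2A is its catalytic subunit and MAT2B its regulatory subunit. Once the methyl group is used, AHCY splits the product S-adenosylhomocysteine into homocysteine and adenosine. MTR, which needs cobalamin and a methyl group from folate, turns homocysteine back into methionine, and MTRR keeps the cobalamin of MTR active. A side branch starts with AMD1, which decarboxylates SAM for polyamine synthesis, and its by-product methylthioadenosine is returned toward methionine by MTAP. AHCYL1 and AHCYL2 resemble AHCY in sequence but are known as IRBIT proteins, which bind the inositol trisphosphate receptor and ion transporters.

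Of the 9 genes, RefSeq promoter windows (GRCh38.p14, 250 bases before to 50 after a transcription start) matched 8. MTRR was not matched. The windows printed are those of MAT2B, which has 2 listed starts, of its catalytic partner MAT2A, and of the first listed start of MTAP and AMD1, which were also lower in shGXYLT2. All lie on the plus strand and run 5′ to 3′, and capitals mark the CCAAT box (CCAAT), the GC box (GGGCGG) and the TATA box (TATAAA) on either strand.
MAT2B upstream start, chr5:163502814-163503113: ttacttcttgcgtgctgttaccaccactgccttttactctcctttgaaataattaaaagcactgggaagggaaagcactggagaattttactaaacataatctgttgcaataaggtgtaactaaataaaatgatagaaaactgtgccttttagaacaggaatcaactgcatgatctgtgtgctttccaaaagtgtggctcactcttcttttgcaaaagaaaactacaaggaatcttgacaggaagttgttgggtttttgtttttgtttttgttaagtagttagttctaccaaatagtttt
MAT2B downstream start, chr5:163505369-163505668: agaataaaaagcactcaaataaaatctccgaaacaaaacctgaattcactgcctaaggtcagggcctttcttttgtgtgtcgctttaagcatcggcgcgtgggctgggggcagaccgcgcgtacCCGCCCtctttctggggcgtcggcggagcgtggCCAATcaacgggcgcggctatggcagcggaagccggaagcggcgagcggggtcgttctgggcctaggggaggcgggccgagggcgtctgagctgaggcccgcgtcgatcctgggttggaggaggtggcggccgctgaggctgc
MAT2A, chr2:85538918-85539217: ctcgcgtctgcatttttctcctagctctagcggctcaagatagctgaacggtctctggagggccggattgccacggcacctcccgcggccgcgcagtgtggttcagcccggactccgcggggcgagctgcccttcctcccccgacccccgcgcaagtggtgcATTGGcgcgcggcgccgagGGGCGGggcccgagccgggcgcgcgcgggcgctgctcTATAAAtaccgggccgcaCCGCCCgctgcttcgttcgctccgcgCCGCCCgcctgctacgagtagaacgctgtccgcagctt
MTAP, chr9:21802386-21802685: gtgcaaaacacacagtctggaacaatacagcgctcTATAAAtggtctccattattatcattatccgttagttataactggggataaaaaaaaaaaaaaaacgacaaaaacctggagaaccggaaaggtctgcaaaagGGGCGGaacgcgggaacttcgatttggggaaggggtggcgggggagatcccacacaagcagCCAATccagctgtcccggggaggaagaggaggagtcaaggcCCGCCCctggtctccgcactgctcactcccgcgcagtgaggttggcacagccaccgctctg
AMD1, chr6:110874535-110874834: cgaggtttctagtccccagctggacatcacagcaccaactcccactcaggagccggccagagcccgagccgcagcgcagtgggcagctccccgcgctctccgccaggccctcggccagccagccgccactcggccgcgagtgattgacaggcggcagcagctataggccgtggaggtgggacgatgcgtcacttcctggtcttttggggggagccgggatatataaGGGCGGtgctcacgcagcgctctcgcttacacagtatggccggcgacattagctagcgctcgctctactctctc
The MAT2B windows differ from each other. The upstream window is 35.0% G and C and holds none of the searched motifs, while the downstream window is 63.3% G and C and holds 1 CCAAT box and 1 GC box. The MAT2A window holds 1 CCAAT box, 3 GC boxes and 1 TATA box, that of MTAP 1, 2 and 1, and that of AMD1 1 GC box. Among 35116 promoter windows of the same length, 34.6% hold a CCAAT box, 45.0% a GC box and 11.5% a TATA box, so these motifs are common among promoters in general. The E-box (CACGTG, 7.26% of windows) and the cyclic AMP response element (TGACGTCA, 1.85%) were searched too and are absent from the windows printed. The counts are per gene and do not separate transcripts from the MAT2B starts.

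The 7-base word GACTCAT was reported, in an earlier analysis of these same libraries, to be common in the 3′ UTRs of genes that fell, and it was looked for here in GENCODE 29 transcripts (GRCh38). None of the 8 MAT2B transcripts holds it. It occurs in the transcripts of MTR and MTAP among the 9 genes, and the sites in their longest coding transcripts are printed with the word in capitals, plus strand, 5′ to 3′.
MTR coding sequence, chr1:236874744-236874750: tggcctgtcagGACTCATcactccttccct
MTR 3′ UTR, chr1:236901323-236901329: gaagacttgttGACTCATttaaagaagatt
MTAP 3′ UTR, chr9:21931619-21931625: taaaaacacatGACTCATgcacatgtggac
Coordinates are those of the word. The word is present in 8.35% of 12373 3′ UTRs of tested genes, in 23.1% of those similar in length to the 6452 bases of MTAP, in 22.3% of those similar to the 6337 bases of MTR and in 10.1% of those similar to the 2556 bases of MAT2B. AHCY, AHCYL1, AHCYL2, AMD1, MAT2A and MTRR, like MAT2B, have no copy in any annotated transcript. A match is a string of letters, not evidence of a site.

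Library totals were 22187998 to 24898399 estimated counts in shGXYLT2 and 17291103 to 22540005 in shControl, and mitochondrial genes took 5.85% to 6.45% of them in shGXYLT2 and 5.79% to 5.81% in shControl. The shGXYLT2 libraries differed more among themselves (chi-square per degree of freedom over genes 5.42 to 9.94 for pairs) than the shControl libraries (1.93 to 3.79), and replicate 3 stood farthest from the other shGXYLT2 libraries (7.84 and 9.94). Levels are CPM scaled by TMM factors unless another scale is named. The target GXYLT2 stood at 5.27, 6.27 and 5.34 CPM in shGXYLT2, against 20.7, 22.8 and 20.2 CPM in shControl, with an exact two-sided permutation p of 0.1, the smallest that 3 against 3 libraries allow (edgeR adjusted p = 6.3e-10). Defining epithelial and gastric genes were nearly silent: 6 epithelial markers (CDH1, EPCAM and 4 keratins) summed to 4.19 to 4.9 CPM of library totals in shGXYLT2 and 4.34 to 5.38 CPM in shControl, and TFF1, TFF2, MUC5AC and GKN1 had 0 counts, so a gastric identity rests on the label. The 6 gastric markers summed to 3.38 to 5.59 CPM in shGXYLT2 and 1.97 to 2.48 CPM in shControl, nearly all from the mucin MUC6 (4.22 CPM in shGXYLT2 and 2.05 CPM in shControl). The 3 mesenchymal markers summed to 2480 to 2680 CPM in shGXYLT2 and 2620 to 2760 CPM in shControl, mostly VIM. FN1 averaged 78.7 CPM in shGXYLT2 and 38.7 CPM in shControl. The remaining marker, CDH2, was nearly silent too, at 0.166 CPM in shGXYLT2 and 0.0338 CPM in shControl, too low to be tested. Whether these marker differences bear on the methionine cycle genes was not tested. Summed leukocyte and endothelial markers stayed below 1 CPM of library totals in every library.

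In shGXYLT2 cells the regulatory subunit of methionine adenosyltransferase II was much lower while the catalytic subunit differed little. MAT2B (ENSG00000038274, chr5:163503114-163519336, plus strand, no overlapping annotated gene) had 1022, 892 and 837 counts in shGXYLT2 replicates 1 to 3, against 1573, 1606 and 1919 counts in shControl replicates 1 to 3. These correspond to 40.8, 36.3 and 37.6 CPM in shGXYLT2, against 90.4, 94.1 and 84.4 CPM in shControl. All 3 shGXYLT2 libraries lay below all 3 shControl libraries, and the highest shGXYLT2 value was less than the lowest shControl value by far more than either group's spread. The mean was 38.2 ± 2.33 CPM in shGXYLT2 and 89.6 ± 4.89 CPM in shControl (SD, n = 3 each), a log2 fold change of -1.23 (SE 0.0702), or 2.34-fold lower. By log2 fold change MAT2B ranked 64 from the lowest among 15693 tested genes. With any 1 library left out its log2 fold change stayed between -1.28 and -1.19. In bulk RNA, fewer cells with the transcript and less transcript per cell cannot be told apart.

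MAT2A (ENSG00000168906, chr2:85539165-85545280, plus strand), the catalytic subunit, stood at 670, 665 and 679 CPM in shGXYLT2, against 702, 758 and 746 CPM in shControl. The groups did not overlap, but the difference was small and did not pass the test: the mean was 671 ± 7.06 CPM in shGXYLT2 and 735 ± 29.4 CPM in shControl (SD, n = 3 each), a log2 fold change of -0.13 (SE 0.0535, edgeR adjusted p = 0.12). GGCX overlaps MAT2A on the other strand and averaged 46.4 CPM in shGXYLT2 and 44.5 CPM in shControl. The subunits were then compared within each library as TPM with the deposited gene length, whose definition is not given. For MAT2B it is 2080 bases, where its longest coding transcript in GENCODE 29 has 3409. The size of the ratio depends on the lengths used, while its fold between groups does not. MAT2A exceeded MAT2B 12.1-, 13.5- and 13.3-fold in shGXYLT2 replicates 1 to 3, against 5.73-, 5.95- and 6.52-fold in shControl replicates 1 to 3. All 3 shGXYLT2 ratios were above all 3 shControl ratios, and their mean was 2.14 times as high. The ratio contains the MAT2B difference that chose the set, so it is a description only.

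**Figure D1:**
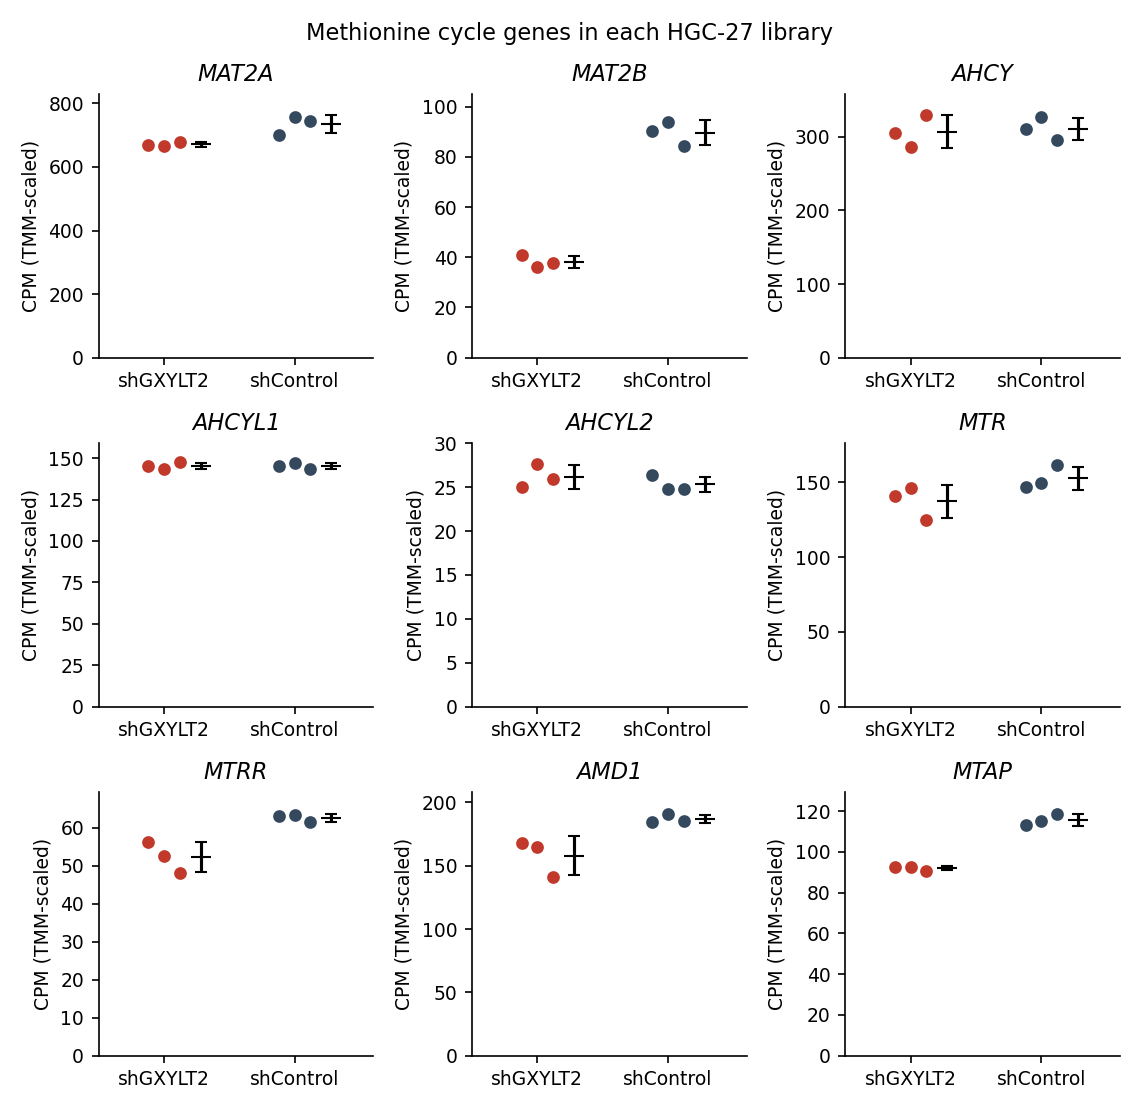
CPM (TMM-scaled, linear axes from 0) of the 9 genes in each library, shGXYLT2 in red and shControl in dark blue, with points for replicates 1 to 3 from left to right and the mean ± SD beside them. MAT2B lies at 36.3 to 40.8 CPM in shGXYLT2 and at 84.4 to 94.1 CPM in shControl, while the groups overlap for AHCY, AHCYL1 and AHCYL2.

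AHCY and its relatives were at nearly the same level in both groups. AHCY (ENSG00000101444, chr20:34280268-34311802, minus strand), the hydrolase that clears S-adenosylhomocysteine, stood at 305, 285 and 330 CPM in shGXYLT2, against 310, 326 and 296 CPM in shControl. The groups overlapped, with the highest value of all and the lowest of all both in shGXYLT2 (log2 fold change -0.018, SE 0.0624, edgeR adjusted p = 0.89). Its 6 annotated processed pseudogenes held at most 3 counts in a library, so few reads were assigned to them. AHCYL1 (ENSG00000168710, chr1:109984686-110023741, plus strand) had 145, 144 and 147 CPM in shGXYLT2, against 145, 147 and 143 CPM in shControl, with a log2 fold change of 0.0030 (SE 0.0560, edgeR adjusted p = 0.98). Its groups overlapped, with an SD of 1.89 CPM in shGXYLT2 and 1.82 CPM in shControl. AHCYL2 (ENSG00000158467, chr7:129225023-129430211, plus strand) averaged 26.2 ± 1.36 CPM in shGXYLT2 and 25.3 ± 0.883 CPM in shControl (SD, n = 3 each), a log2 fold change of 0.051 (SE 0.0802, edgeR adjusted p = 0.75). The balance between the relatives was also close in both groups: AHCYL1 stood at 0.259 ± 0.0154 of the AHCY level per length in shGXYLT2 and at 0.255 ± 0.00945 in shControl (SD, n = 3 each). A p above the threshold does not show that these genes were equal. A difference larger than the SE can go uncalled, as for MAT2A (log2 fold change -0.13, SE 0.0535).

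Remethylation of homocysteine was represented by MTR and MTRR, and MTRR fell. MTRR (ENSG00000124275, chr5:7851186-7906025, plus strand), the reductase that keeps MTR active, stood at 56.3, 52.5 and 48.1 CPM in shGXYLT2, against 63.1, 63.3 and 61.5 CPM in shControl. The groups did not overlap, and the shGXYLT2 libraries spread wider (SD 4.06 CPM) than the shControl libraries (SD 0.991 CPM). The log2 fold change was -0.26 (SE 0.0696, edgeR adjusted p = 0.019), 1.20-fold lower, and -0.20 without shGXYLT2 replicate 3 (edgeR adjusted p = 0.025). The call needed all 3 control libraries: without shControl replicates 1, 2 and 3 in turn the edgeR adjusted p was 0.0909, 0.0895 and 0.0674. FASTKD3, which overlaps MTRR on the other strand, averaged 30.9 CPM in shGXYLT2 and 33.5 CPM in shControl (edgeR adjusted p = 0.37), and no source says that counting was by strand, so MTRR is uncertain where the genes overlap.

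MTR (ENSG00000116984, chr1:236795281-236903981, plus strand), methionine synthase itself, stood at 141, 146 and 125 CPM in shGXYLT2, against 147, 149 and 162 CPM in shControl. All shGXYLT2 values lay below all shControl values, replicate 2 by little and replicate 3 by most, but the difference did not pass (log2 fold change -0.15, SE 0.0667, edgeR adjusted p = 0.15). Without shGXYLT2 replicate 3 it was -0.088 (edgeR adjusted p = 0.27). Per length, MTRR stood at 1.23 ± 0.0668 of the MTR level in shGXYLT2 and at 1.32 ± 0.0863 in shControl (SD, n = 3 each).

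Both genes at the polyamine branch fell, each by less than MAT2B. AMD1 (ENSG00000123505, chr6:110874770-110895713, plus strand), the decarboxylase that commits SAM to polyamines, stood at 168, 165 and 141 CPM in shGXYLT2, against 185, 191 and 185 CPM in shControl. All shGXYLT2 values were below all shControl values, with replicate 3 lowest, as for MTR and MTRR. The log2 fold change was -0.24 (SE 0.0664, edgeR adjusted p = 0.022), 1.18-fold lower. It was -0.16 without shGXYLT2 replicate 3 (edgeR adjusted p = 0.021), and without shControl replicates 1, 2 and 3 in turn the edgeR adjusted p was 0.0783, 0.110 and 0.0783. Of its 4 annotated pseudogenes the highest count in a library was 6. MTAP (ENSG00000099810, chr9:21802543-21937651, plus strand), which cleaves methylthioadenosine as the opening step of methionine salvage, stood at 92.6, 92.6 and 90.8 CPM in shGXYLT2, against 113, 115 and 119 CPM in shControl. The groups were far apart relative to their spread (SD 1.05 CPM in shGXYLT2 and 2.80 CPM in shControl), and the log2 fold change was -0.33 (SE 0.0586, edgeR adjusted p = 8.2e-04), 1.26-fold lower. MTAP passed the threshold in each of the 11 other fits, with edgeR or DESeq2 adjusted p of 4.4e-06 to 0.013. The antisense gene AL359922.2 in the MTAP locus held at most 44 counts in a library.

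In all, 4 of the 9 genes fell at an edgeR adjusted p below 0.05 and 0 rose, where 6.84% of all 15693 tested genes fell and 5.31% rose (12.2% in either direction). MAT2B counts among the 4 by the choice of the set, and leaving it out, 3 of 8 fell. Without any 1 of the shControl libraries the fallen genes numbered 2, MAT2B and MTAP. The groups did not overlap for 6 of the 9 genes (5 of 8 without MAT2B), all lower in shGXYLT2. Of all tested genes 30.4% had groups that did not overlap (15.8% lower and 14.6% higher in shGXYLT2). The median log2 fold change was -0.15 over the 9 genes and -0.0057 over all tested genes. Since the set was drawn up from this same contrast, nothing is read from these shares.

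**Figure D2:**
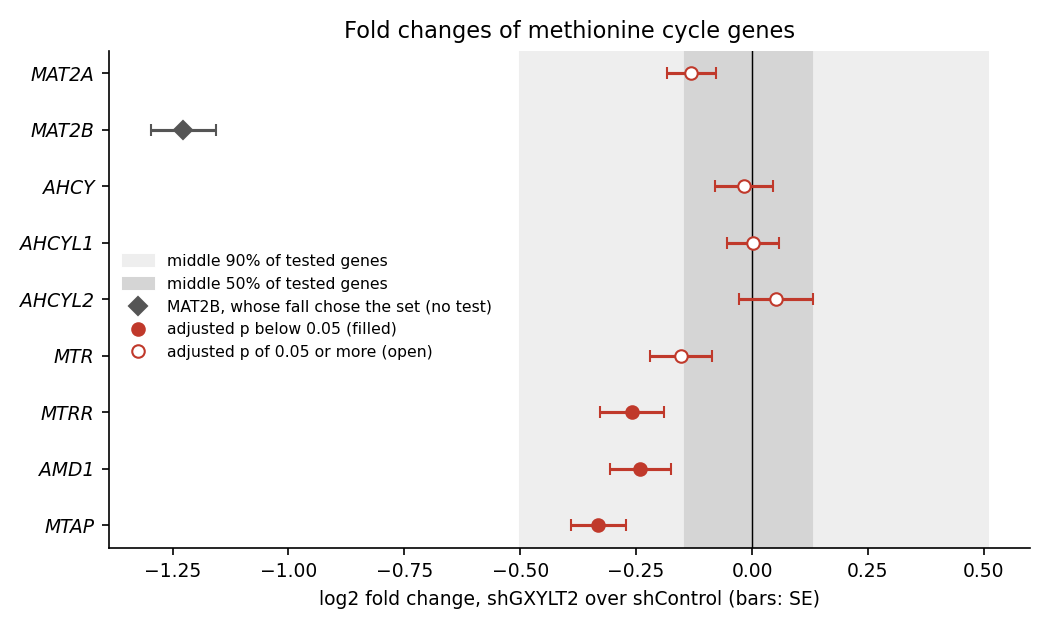
Log2 fold change (shGXYLT2 over shControl) of each gene with its SE; the grey diamond is MAT2B, filled circles have an edgeR adjusted p below 0.05, and the grey bands hold the middle 50% and 90% of 15693 tested genes. MAT2B at -1.23 lies outside the wider band, which runs from -0.50 to 0.51, and the other 8 genes lie inside it, from -0.33 to 0.051.

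Per deposited gene length, whose definition is not given, the order of the genes changed around MAT2B. For AMD1 this length is 6589 bases, where its longest coding transcript in GENCODE has 3438. For MAT2B it is 2080 bases, where its longest coding transcript has 3409. The order within a group, and which genes MAT2B stands ahead of, therefore hold for the deposited lengths only. Other lengths were not tried. On the TPM scale MAT2A was the highest of the 9 genes, at 478 ± 9.85 in shGXYLT2 and 536 ± 22.6 in shControl (SD, n = 3 each), and AHCY followed at 286 ± 19.5 in shGXYLT2 and 296 ± 9.72 in shControl. In shGXYLT2 the order continued with AHCYL1 (74.0 TPM), AMD1 (48.2 TPM), MAT2B (36.9 TPM), MTRR (32.1 TPM), MTR (26.1 TPM), MTAP (24.4 TPM) and AHCYL2 (10.4 TPM). In shControl MAT2B followed AHCY at 88.4 TPM, ahead of AHCYL1 (75.6 TPM) and AMD1 (58.2 TPM), and MTRR (39.3 TPM), MTAP (31.4 TPM), MTR (29.7 TPM) and AHCYL2 (10.3 TPM) followed. The ranges of MTR and MTAP overlapped in both groups, and those of MAT2B and MTRR overlapped in shGXYLT2. Within each shGXYLT2 library MAT2B was nonetheless above MTRR, and within each shControl library MTAP was above MTR, while the order of MTR and MTAP varied between the shGXYLT2 libraries.

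**Figure D3:**
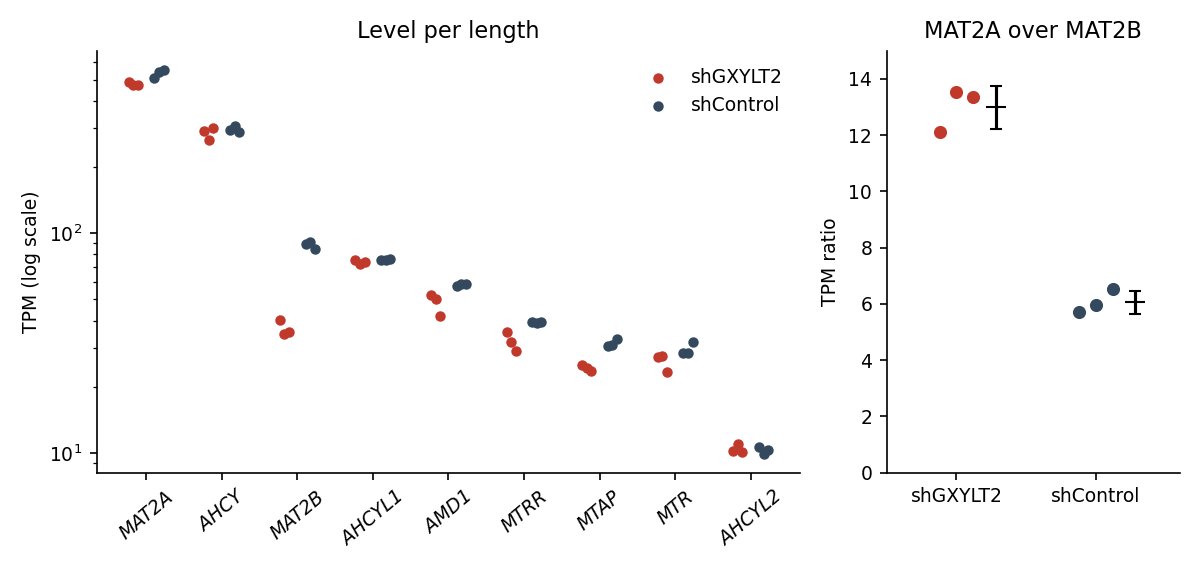
Left, TPM (log axis, deposited gene length) of each gene in each library, shGXYLT2 in red and shControl in dark blue, ordered by the shControl mean; right, the within-library ratio of MAT2A to MAT2B in TPM with mean ± SD. MAT2B lies at 34.8 to 40.4 TPM in shGXYLT2 and 84.8 to 91.4 TPM in shControl, and the ratio lies at 12.1 to 13.5 in shGXYLT2 and 5.73 to 6.52 in shControl.

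Genes whose pattern over the 6 libraries was most like that of MAT2B were found by Euclidean distance between log2 CPM centred on each gene's mean, among 10012 tested genes whose mean log2 CPM was 3 or more. The closest were EMP1, a membrane protein of the PMP22 family (distance 0.144 on the log2 scale), DKK1, a secreted Wnt antagonist (0.158), COPS8, a subunit of the COP9 signalosome (0.166), KIF1A, a kinesin motor (0.167), and SQSTM1, an autophagy receptor (0.185). EMP1 averaged 42.4 ± 1.54 CPM in shGXYLT2 and 95.8 ± 7.33 CPM in shControl (SD, n = 3 each), close to the MAT2B levels. COPS8 averaged 39.3 ± 0.394 CPM in shGXYLT2 and 89.3 ± 2.08 CPM in shControl (SD, n = 3 each). The measure picks genes with an equally large fall by construction.

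Around these 9 genes, 70 genes in 4 further lists were examined, of which 58 were tested. The folate genes, which supply the methyl group that MTR uses, moved in both directions. Of 18 listed folate genes 16 were tested, 4 rose and 3 fell, and 9 did not pass, with a median log2 fold change of -0.031. Of all tested genes 5.31% rose and 6.84% fell. SLC25A32, the mitochondrial folate carrier, stood at 40.1, 40.4 and 36.4 CPM in shGXYLT2, against 55.6, 52.7 and 53.8 CPM in shControl (log2 fold change -0.47, edgeR adjusted p = 1.5e-04). SHMT2, the mitochondrial serine hydroxymethyltransferase, averaged 235 ± 17.2 CPM in shGXYLT2 and 299 ± 5.13 CPM in shControl (SD, n = 3 each), a log2 fold change of -0.35 (edgeR adjusted p = 7.5e-04). MTHFD2, the next mitochondrial enzyme after SHMT2, averaged 366 ± 6.31 CPM in shGXYLT2 and 447 ± 7.31 CPM in shControl (SD, n = 3 each), a log2 fold change of -0.29 (edgeR adjusted p = 0.0011). Each of these 3 kept its call in all 11 other fits. Other mitochondrial folate genes of the list did not pass: MTHFD2L had a log2 fold change of -0.071 (edgeR adjusted p = 0.68), ALDH1L2 0.043 (edgeR adjusted p = 0.76) and MTFMT 0.044 (edgeR adjusted p = 0.83). The mitochondrial MTHFD1L averaged 61.4 CPM in shGXYLT2 and 63.9 CPM in shControl, and the cytosolic SHMT1 61.7 CPM in shGXYLT2 and 57.1 CPM in shControl; neither passed (edgeR adjusted p = 0.66 and 0.30), and these 5 were named after their values were seen.

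FOLR1, a folate receptor, stood at 10.2, 8.71 and 11.1 CPM in shGXYLT2, against 6.27, 6.74 and 6.33 CPM in shControl (log2 fold change 0.63, edgeR adjusted p = 0.0023). SLC46A1, the proton-coupled folate transporter, averaged 8.16 ± 0.837 CPM in shGXYLT2 and 5.54 ± 0.314 CPM in shControl (SD, n = 3 each), a log2 fold change of 0.55 (edgeR adjusted p = 0.0086, and 0.051 without shControl replicate 1). SLC19A1, the reduced folate carrier, named after its values were seen, averaged 28.7 CPM in shGXYLT2 and 32.6 CPM in shControl with a log2 fold change of -0.18 (edgeR adjusted p = 0.16, and 0.0446 without shGXYLT2 replicate 3). GGH, which trims polyglutamate from folates and was named outside the rule after its values were seen, averaged 77.9 CPM in shGXYLT2 and 65.5 CPM in shControl (edgeR adjusted p = 0.012); it did not pass without shControl replicate 1 or 2, and without shControl replicate 1 the risen folate genes numbered 2, with FOLR1 still among them.

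**Figure D4:**
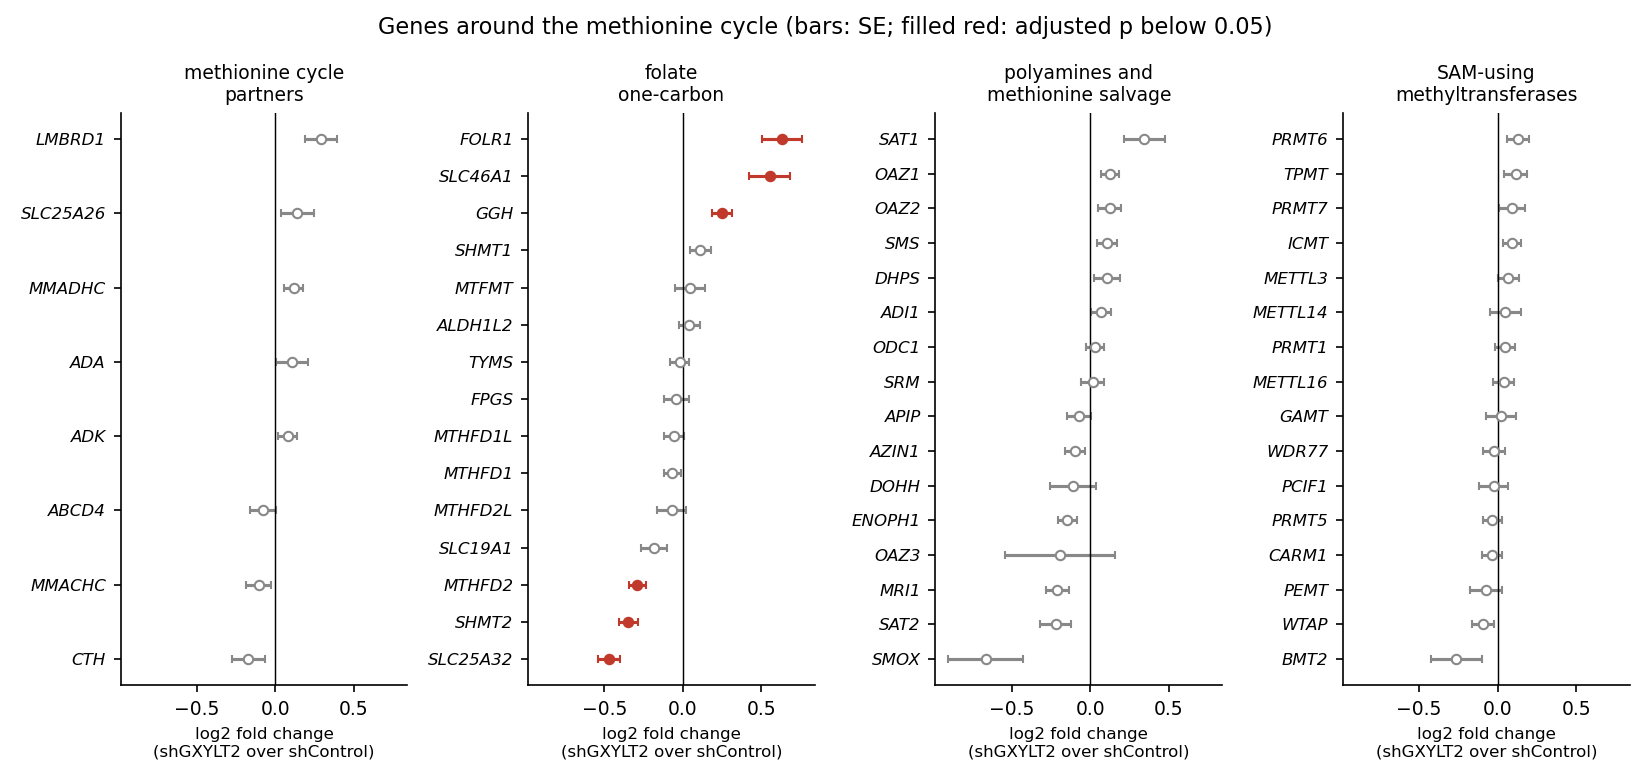
Log2 fold change (shGXYLT2 over shControl) with SE of 55 of the 58 tested genes in 4 lists around the methionine cycle, sorted within each list; filled red points have an edgeR adjusted p below 0.05. The 6 shown that pass are all in the folate list, 3 risen (0.25 to 0.63) and 3 fallen (-0.47 to -0.29).

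The other partners of the cycle gave 0 calls. The 14 listed genes include those for transsulfuration, cobalamin handling, SAM transport and adenosine removal. Of these, 9 were tested and 0 passed in edgeR or DESeq2. At an unadjusted edgeR p below 0.05 stood 1 of them (LMBRD1, a lysosomal cobalamin exporter), beside 4005 of all 15693 tested genes. The liver form MAT1A, and GNMT, BHMT, BHMT2 and CBS, had too few counts to be tested; CBS is uncertain, since GRCh38 carries a near-identical copy. MMADHC, which directs cobalamin inside the cell, averaged 113 ± 4.57 CPM in shGXYLT2 and 104 ± 3.06 CPM in shControl (SD, n = 3 each; edgeR adjusted p = 0.24). ADK, the kinase that removes the adenosine made by AHCY, averaged 92.8 ± 1.45 CPM in shGXYLT2 and 88.0 ± 4.43 CPM in shControl (SD, n = 3 each; edgeR adjusted p = 0.47).

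Apart from AMD1 and MTAP, the polyamine and methionine salvage genes gave 0 calls in edgeR or DESeq2 among 16 tested. Their median log2 fold change was -0.027. An unadjusted edgeR p below 0.05 was found for 6 of them and for 4005 of all 15693 tested genes. ODC1, which makes putrescine, averaged 545 ± 20.5 CPM in shGXYLT2 and 533 ± 30.2 CPM in shControl (SD, n = 3 each; edgeR adjusted p = 0.79). OAZ1, the antizyme that restrains ODC1, averaged 376 ± 18.9 CPM in shGXYLT2 and 345 ± 11.5 CPM in shControl (SD, n = 3 each; edgeR adjusted p = 0.18). MRI1, the salvage enzyme after MTAP, averaged 48.9 CPM in shGXYLT2 and 56.5 CPM in shControl (edgeR adjusted p = 0.063, and 0.0089 without shGXYLT2 replicate 3), and SMOX, spermine oxidase, passed without shGXYLT2 replicate 1 (edgeR adjusted p = 0.030); both were named after their values were seen.

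The list of methyltransferases that spend SAM also holds partner proteins such as WDR77 and WTAP, and holds no DNA or histone lysine methyltransferase. It too gave 0 calls in edgeR or DESeq2 among 17 tested, with a median log2 fold change of 0.022. An unadjusted edgeR p below 0.05 was found for 1 of them, beside 4005 of all 15693 tested genes. PRMT1, the main asymmetric arginine methyltransferase, averaged 252 ± 21.7 CPM in shGXYLT2 and 244 ± 8.98 CPM in shControl (SD, n = 3 each; edgeR adjusted p = 0.71). PRMT5, the symmetric arginine methyltransferase, averaged 207 ± 13.2 CPM in shGXYLT2 and 212 ± 10.1 CPM in shControl (SD, n = 3 each; edgeR adjusted p = 0.79). METTL16, the RNA methyltransferase known to govern MAT2A splicing by SAM level, averaged 62.7 CPM in shGXYLT2 and 61.1 CPM in shControl (edgeR adjusted p = 0.78) and was named after its values were seen. Across the 4 lists 4 of 58 tested genes rose and 3 fell, beside 5.31% and 6.84% of all tested genes.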

How the data were processed

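The submitters' processing notes name GRCh38.p13, StringTie, HISAT2 and fastp; no source used here gives their versions, the counting step, strand use or annotation. Libraries came from an Illumina stranded messenger RNA kit, per the labels' protocols. The table the authors deposited holds unnormalized estimated counts and a gene length; 12.3% of the counts were not whole, and they were rounded here. Group and replicate came from sample titles. Counts were fitted in R 4.3.3 with edgeR 4.0.16 (filterByExpr, TMM, robust quasi-likelihood, group as the only term, 6 libraries), with Benjamini-Hochberg adjustment over 15693 genes and a threshold of 0.05. SE is the log2 fold change over the root of F. TPM used the deposited length. DESeq2 1.42.0 and 10 further settings were alternatives. The fit was also run on simulated counts with the same spread for all genes and both groups. That run cannot show that the fit suits these libraries, whose groups differ in spread. The members and lists were chosen with earlier results of these data known. Named genes were the 9 members, GXYLT2, the 5 nearest in pattern to MAT2B, and from each list up to 3 risen and 3 fallen by adjusted p, or the 2 most abundant. Of the list genes, 3 are counted but not reported here. Word and promoter searches used GENCODE 29 and RefSeq. Counting depth limits precision: MAT2B rested on 837 to 1919 counts a library.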

Additional observations from a re-analysis of the deposited data

How the results depend on the processing

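GXYLT2, MAT2B, MTAP, SLC25A32, SHMT2, MTHFD2 and FOLR1 kept their direction and their side of the threshold in all 11 alternatives; for MAT2B this is no support, since its fall chose the set. RLE factors, upper-quartile factors, no filter and DESeq2 each left 4 fallen members, 0 risen members, and 4 risen and 3 fallen folate genes. With 1 library left out, all genes gave 397 to 1038 rises and 563 to 1309 falls, against 833 and 1074 with all 6, the members 2 to 4 falls and the folate list 2 to 4 rises and 3 to 4 falls, with SLC19A1 gained without shGXYLT2 replicate 3; the lists of cycle partners (0 to 1 risen), polyamines (0 to 1 fallen) and methyltransferases (0 to 1 fallen) gained 1 gene each, LMBRD1 and MRI1 among them, without shGXYLT2 replicate 3, and SMOX without shGXYLT2 replicate 1. The lowest counts of all genes were those without shControl replicate 3, and the cause was not tested.

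Small differences changed sign in members and list genes: AHCY was at 0.0045 with upper-quartile factors and ran from -0.071 to 0.028 with 1 library left out, AHCYL1 from -0.0056 to 0.011, ODC1 from -0.0083 to 0.072, PRMT1 from -0.022 to 0.092 and PRMT5 from -0.083 to 0.00044. Same-numbered libraries, by the sample titles, did not deviate together (correlations -0.019, -0.21 and -0.26 over 10021 genes), and no library correlated best with its own number. Unlike numbers gave correlations from -0.096 to 0.248. The highest were 0.248 for shGXYLT2 replicate 3 with shControl replicate 2 and 0.219 for shGXYLT2 replicate 2 with shControl replicate 3. The cause was not tested, and a block by title number does not model these pairs. The deposited column names give the 2 libraries titled replicate 2 unlike numbers, so a shared preparation of that pair is not marked by them. With the replicate number as a block 606 genes rose and 865 fell, 4 members fell, and no member or list call changed; the GXYLT2 log2 fold change was -1.92. MAT1A had too few counts to test, as did CBS, whose count is uncertain given its near-identical copy.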
